A study of Homo sapiens with 6 samples.

Results

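The genes described here encode the hormones that human islet cells make besides insulin, with 3 factors of alpha and delta cells. The hormones were IAPP (islet amyloid polypeptide), SST (somatostatin), GCG (glucagon), PPY (pancreatic polypeptide), PYY (peptide YY), GHRL (ghrelin) and NPY (neuropeptide Y), and the factors were HHEX, IRX2 and POU3F4. Accessible regions were assigned to these 10 genes by position alone. A promoter region came within 2 kb of where a protein-coding transcript of the gene starts (GENCODE 44), and a distal region was any other region whose midpoint had such a start as its nearest, at up to 100 kb. By this rule 52 of the 108542 regions belonged to the genes, of which 14 were promoter regions and 38 were distal.

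The regions come from ATAC-seq, in which the transposase Tn5 cuts open chromatin and tags it for sequencing, in EndoC-βH3 cells, a line of human beta-like cells obtained from fetal pancreas and labelled as wild type. The line carries transgenes for hTERT and SV40 large T antigen, and an inducible Cre recombinase (CreER) that can remove them. The senescent group (3 libraries) had received 4-hydroxytamoxifen for 3 weeks. The paper states that this treatment activates CreER, which excises these transgenes. The non-senescent group (3 libraries) was the control and kept them. Each library was made from 100000 cells of this 1 line, and the labels do not say whether replicates were separate cultures.

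Values below are the authors' mean signal, which is the average over all 6 libraries of read counts divided by size factors. Senescent and non-senescent libraries enter the same mean, so no value here separates the 2 groups, and values of single libraries were not analysed here. The mean therefore has no replicate error, and the order of any pair of values was not tested. Mean signal depends on the width of a region, so levels of different genes were compared as signal per kb, the mean signal divided by the width. Over all regions the mean signal ran from 0.531 to 187656 with a median of 98.05. Its median was 506 at the 20094 regions in a promoter window of any protein-coding gene and 76.8 at the 88448 other regions, and in signal per kb these medians were 507 and 168.

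An islet holds several endocrine cell types, each with its own main hormone. Beta cells release insulin together with IAPP, alpha cells release glucagon, delta cells somatostatin, gamma (PP) cells pancreatic polypeptide and epsilon cells ghrelin. These types arise from shared progenitors under the control of homeodomain factors, and the hormones of the other types are kept low in mature beta cells. HHEX is required for delta cells, and IRX2 and POU3F4 are homeodomain factors enriched in alpha cells.

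Beta cell markers were checked first, since the line is labelled as beta cells. All 15 of 15 listed markers had a promoter region, against 78.7% of the 19676 protein-coding genes. The strongest promoter region of each marker, by mean signal, had a median signal per kb of 1114, with the lowest value, 286, at G6PC2, a catalytic subunit of glucose-6-phosphatase. Over all protein-coding genes with a promoter region this median was 686. Of the islet hormone and factor genes, 9 of 10 had a promoter region, with a median signal per kb of 335 at the strongest, from 139.9 at GCG to 814 at GHRL. The gene at this median was PYY, whose strongest promoter region in mean signal is shared with NAGS. The other promoter region of PYY had 612 per kb, so this median depends on which of its regions is taken. With 612 for PYY, the median would be 435, the value of IAPP. A region covered the canonical start (the start of the reference transcript) of 6 of the 10 genes, which were IAPP, SST, GHRL, NPY, HHEX and IRX2. For all protein-coding genes this share was 66.6%.

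**Figure D1:**
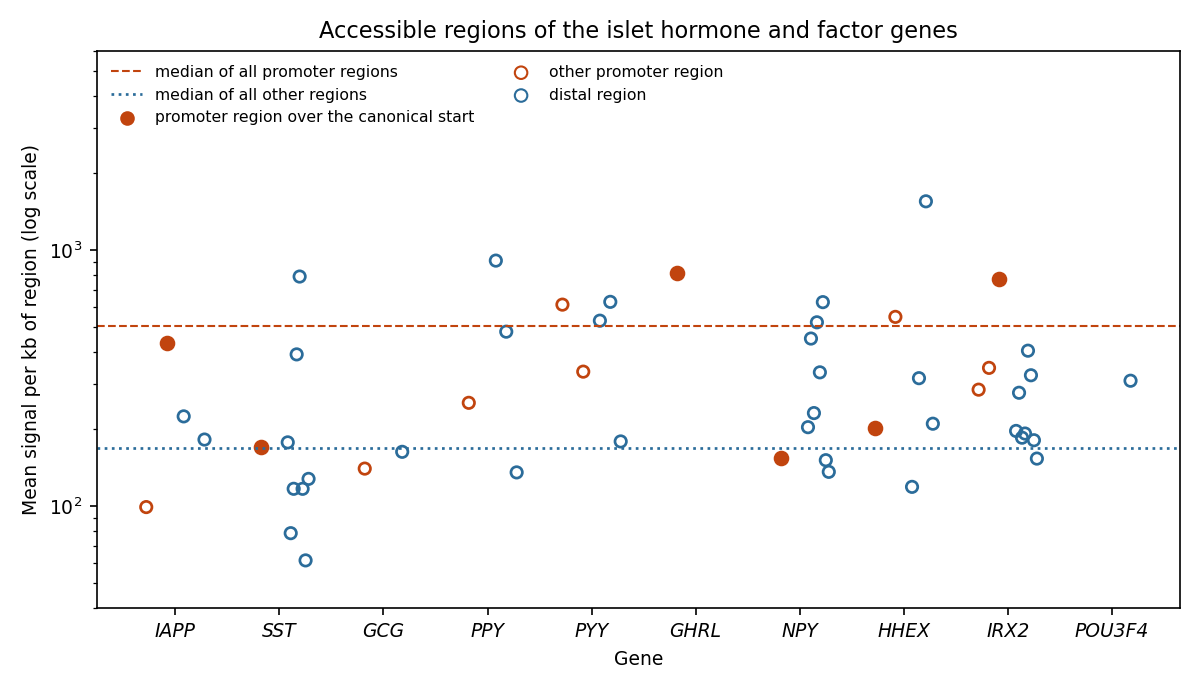
Signal per kb of each of the 52 regions (log scale), by gene, with promoter regions in red (filled where they cover the canonical start) and distal regions in blue. The dashed and dotted lines mark the medians of all promoter regions (507) and of all other regions (168), and 4 of the 14 promoter regions and 27 of the 38 distal regions lie above the line of their class.

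Compared per kb, 4 of the 14 promoter regions lay above the median of all promoter regions and 27 of the 38 distal regions above the median of the other regions. The median promoter region exceeded 32.9% of its class in signal per kb, and the median distal region exceeded 59.4% of its class. Among distal regions, 27 of 38 lay over 10 kb from the nearest start. By the annotation at the midpoint, 22 of the 38 distal regions were intergenic, 6 were in introns of protein-coding genes, 8 in introns of non-coding genes and 2 in exons of non-coding transcripts. The shares of all other regions by distance and annotation are not given here, so these counts only describe the 38 regions.

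IAPP, the amyloid-forming peptide that beta cells co-secrete with insulin, had 4 regions, with midpoints all inside introns of SLCO1A2, which runs across the locus. The region over the canonical start (chr12:21372510-21372932) had a mean signal of 183, or 435 per kb, which exceeded 44.4% of all promoter regions per kb. A start of a longer transcript lies 17943 bp upstream, and its promoter region (chr12:21353658-21353911) had a mean signal of 25.05, or 99.0 per kb, the lowest of the 14 promoter regions. Both distal regions had a mean signal of 66.3, at 21.71 kb upstream (224 per kb) and 3.72 kb downstream (182 per kb) of the canonical start. Per kb they exceeded 62.7% and 53.7% of all other regions. Thus IAPP, a beta cell hormone, had a promoter signal per kb below the median of all promoter regions. Of the listed beta cell markers, KCNJ11, UCN3 and G6PC2 also lay below this median at their strongest promoter region, and the others lay above it.

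SST, whose product inhibits the release of insulin and glucagon, had 1 promoter and 8 distal regions. The region over its only coding start (chr3:187669839-187670985) reaches over a coding exon and had a mean signal of 195, or 171 per kb, which exceeded 18.2% of all promoter regions per kb. Its strongest region lay elsewhere, at 28.87 kb downstream in intergenic sequence (chr3:187641050-187641999), with a mean signal of 747, or 787 per kb, above 93.3% of all other regions per kb. The remaining 7 distal regions had mean signals from 19.96 to 93.4, the highest of them at 29.99 kb, next to the strong region. Per kb, the strong downstream region thus exceeded the promoter, while its nearest other coding gene, RTP2, started 61033 bp away.

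The SST sequences are shown because the promoter and the strong downstream region carry different motifs. Both are from hg38 and run 5′ to 3′, with the letters of searched motifs in capitals. In the upstream window (the 250 bases before the start) these are TATAAA, at 215 bases before the start, and TGACGTCA, the cyclic AMP response element, at 47 bases before it. In the centre of the downstream region they are TAATTA, a core bound by many homeodomain factors, and the reverse complement of TGTTTAC, a core of forkhead factors.
SST upstream, chr3:187670395-187670644, minus strand: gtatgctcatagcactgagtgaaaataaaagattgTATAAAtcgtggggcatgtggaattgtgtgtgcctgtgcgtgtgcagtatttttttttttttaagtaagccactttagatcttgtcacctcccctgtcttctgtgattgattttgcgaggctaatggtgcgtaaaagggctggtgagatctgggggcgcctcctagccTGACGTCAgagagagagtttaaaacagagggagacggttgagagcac
SST distal, chr3:187641375-187641674, plus strand: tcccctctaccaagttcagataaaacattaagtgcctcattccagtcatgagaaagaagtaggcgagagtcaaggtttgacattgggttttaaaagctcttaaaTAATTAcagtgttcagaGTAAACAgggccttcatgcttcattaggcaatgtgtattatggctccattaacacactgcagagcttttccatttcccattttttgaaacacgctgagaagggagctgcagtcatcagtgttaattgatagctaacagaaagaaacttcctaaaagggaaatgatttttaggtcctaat

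GCG, the alpha cell hormone that raises blood glucose, had 2 regions with a summed mean signal of 126.9, the lowest of the 10 genes. No region covered its canonical start, and the nearest (chr2:162153602-162154076) began 1356 bp upstream, in intergenic sequence, with a mean signal of 66.3, or 139.9 per kb, above 14.04% of all promoter regions per kb. Its distal region (chr2:162172803-162173175), 20.74 kb upstream, had a mean signal of 60.5 and overlaps a coding exon of FAP, the gene of a serine protease. With starts of non-coding transcripts counted, the nearest start to this region was of FAP, at 792 bp.

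PPY, PYY and NPY encode a family of related peptides, of which PYY slows gut motility and appetite, pancreatic polypeptide restrains pancreatic secretion and NPY acts mainly in neurons. PPY and PYY are neighbours on chromosome 17, both on the minus strand. At PPY no region covered the canonical start, and the only promoter region (chr17:43943913-43944480) lay 1438 bp upstream of it, with a mean signal of 143.4, or 253 per kb, above 27.3% of promoter regions per kb. Its strongest region was distal, 11.23 kb downstream (chr17:43930904-43931597) in an intron of a non-coding gene, with a mean signal of 629.7, or 909 per kb, above 94.9% of all other regions per kb. The other distal regions of PPY had mean signals of 197 at 4.32 kb downstream and 37.9 at 4.11 kb upstream.

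PYY had 5 regions with a summed mean signal of 2985, of which 937 came from a region shared with NAGS. Its canonical start was 484 bp outside the nearest region (chr17:43952219-43953456), which covers coding and untranslated exons of PYY and had a mean signal of 757, or 612 per kb. The other promoter region (chr17:44004842-44007641) comes within 2 kb of an upstream start of PYY but does not cover it. The region is also in the promoter window of NAGS, the gene of a urea cycle enzyme, whose starts include the closest to its midpoint. Its mean signal of 937 over 2799 bp, or 335 per kb, therefore cannot be assigned to PYY alone. Between both starts, in introns of the long PYY transcript, 3 distal regions had mean signals of 373, 772 and 145.8, and the strongest of them (chr17:43983486-43984718) had 627 per kb.

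NPY had 1 promoter and 8 distal regions, 7 of them downstream of its start, among which that at 6.24 kb (mean signal 215, or 451 per kb) lay in an intron of NPY. The region over its start (chr7:24283521-24285269) was wide, at 1748 bp, and had a mean signal of 269.5, or 154 per kb, above 16.05% of promoter regions per kb. Stronger signal lay downstream, in introns of a non-coding gene, with a mean signal of 394 (522 per kb) at 50.12 kb and of 458 (625 per kb) at 82.89 kb (chr7:24366717-24367449). The next other coding gene, PALS2, started 206185 bp from the latter region, so that the nearest-start rule gave NPY regions almost up to the limit of 100 kb. The centre of the region at 82.89 kb is shown since it held the letters CAGATG, an E-box bound by factors such as NEUROD1, on both strands (in capitals), while the window upstream of NPY, shown beside it without the bases nearest the start, held no searched motif.
NPY distal, chr7:24366934-24367233, plus strand: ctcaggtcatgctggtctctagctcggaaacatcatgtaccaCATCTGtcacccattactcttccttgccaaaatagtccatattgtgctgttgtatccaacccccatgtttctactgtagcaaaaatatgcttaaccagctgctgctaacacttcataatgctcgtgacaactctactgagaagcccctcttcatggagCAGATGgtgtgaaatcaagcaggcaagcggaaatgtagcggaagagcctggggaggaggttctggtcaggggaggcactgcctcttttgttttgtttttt
NPY upstream, chr7:24283940-24284187, plus strand: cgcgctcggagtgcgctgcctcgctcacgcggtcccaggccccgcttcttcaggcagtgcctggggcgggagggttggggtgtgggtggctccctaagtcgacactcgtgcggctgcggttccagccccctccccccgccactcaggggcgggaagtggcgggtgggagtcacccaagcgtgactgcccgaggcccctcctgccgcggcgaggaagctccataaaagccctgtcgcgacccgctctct

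GHRL, the hormone of epsilon cells, which stimulates appetite, had a single region and no distal region. This region (chr3:10292418-10293327) covered the canonical start and coding exons, and had a mean signal of 740.3, or 814 per kb, above 70.1% of all promoter regions per kb. It was the highest signal per kb of the 14 promoter regions. The next other coding gene, TATDN2, started 21952 bp away, and 32.9% of all protein-coding genes also had no distal region.

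**Figure D2:**
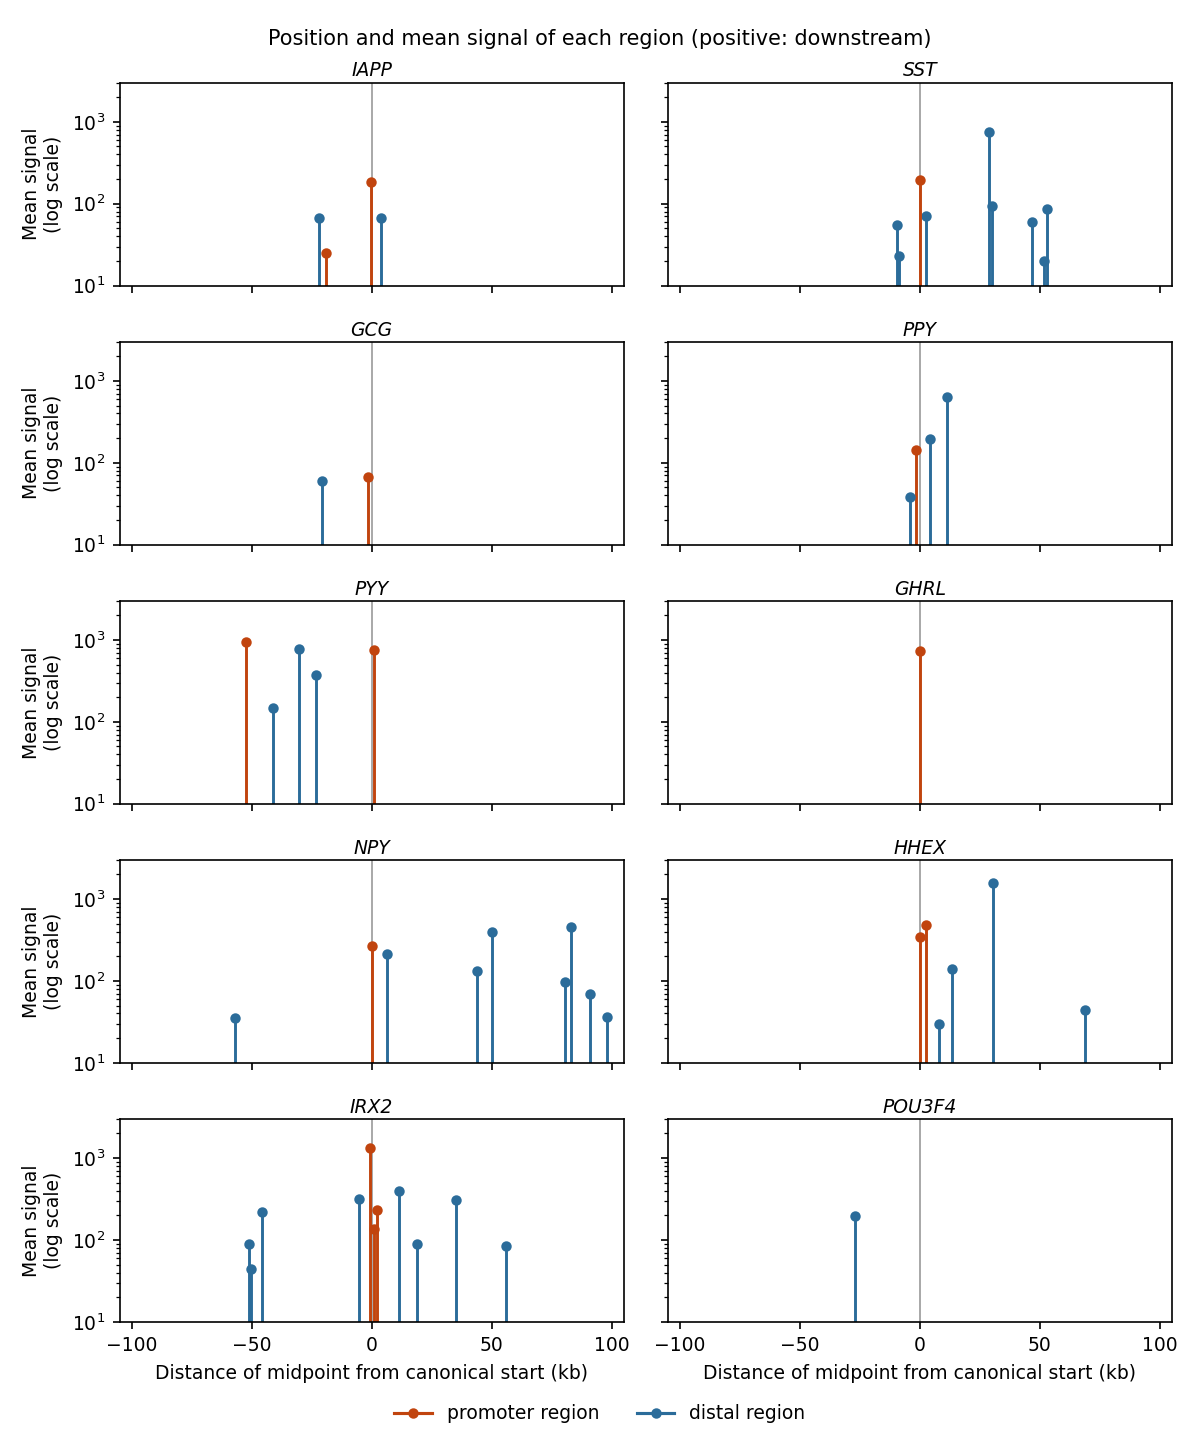
Mean signal of each region (log scale) against the distance of its midpoint from the canonical start of its gene, in kb and in the direction of transcription, with promoter regions in red and distal regions in blue. The strongest regions of SST, HHEX and NPY lie 28.87, 30.46 and 82.89 kb downstream, and GHRL and POU3F4 have 1 region each.

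HHEX, the homeodomain factor of delta cells, also acts in liver and blood development. Its 2 promoter regions had mean signals of 346 over the canonical start (chr10:92689016-92690733) and 478 at 2.74 kb downstream (chr10:92692256-92693129), or 202 and 548 per kb. The strongest of all 52 regions lay 30.46 kb downstream of its start in intergenic sequence (chr10:92719913-92720927), with a mean signal of 1571, or 1549 per kb, above 98.5% of all other regions per kb. The next coding gene, EXOC6, started 106411 bp from this region. The other 3 distal regions had mean signals of 29.8, 141.1 and 43.8. The upstream window and the centre of the strong region are shown for their contrast in base composition, 81.2% GC in the former and 36.3% in the latter, and neither held a searched motif.
HHEX upstream, chr10:92689705-92689954, plus strand: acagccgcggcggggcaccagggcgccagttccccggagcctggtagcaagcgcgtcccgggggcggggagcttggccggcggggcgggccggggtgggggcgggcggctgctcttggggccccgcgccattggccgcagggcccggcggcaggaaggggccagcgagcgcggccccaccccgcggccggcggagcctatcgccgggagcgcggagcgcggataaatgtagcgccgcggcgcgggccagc
HHEX distal, chr10:92720271-92720570, plus strand: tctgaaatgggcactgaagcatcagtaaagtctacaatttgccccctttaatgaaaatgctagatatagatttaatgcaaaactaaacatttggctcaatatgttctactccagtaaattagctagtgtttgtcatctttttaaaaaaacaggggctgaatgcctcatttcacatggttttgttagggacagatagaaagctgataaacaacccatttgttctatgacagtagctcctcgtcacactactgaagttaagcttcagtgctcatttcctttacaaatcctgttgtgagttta

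IRX2, an Iroquois homeodomain factor of alpha cells, had 11 regions, the most of the 10 genes, with a summed mean signal of 3253. Its 3 promoter regions had mean signals of 1339.5 over the canonical start (chr5:2751630-2753367), 136.4 in an intron at 1.07 kb and 229 in a coding exon at 2.20 kb downstream. The first of these, at 771 per kb, exceeded 67.7% of promoter regions per kb, and its midpoint lay 233 bp from a start of IRX2-DT, a divergent non-coding transcript, so its signal cannot be given to IRX2 alone. The 8 distal regions lay on both sides, 4 upstream and 4 downstream, with mean signals from 44.3 to 400.2. The strongest of them in mean signal (chr5:2739208-2741294, 11.43 kb downstream) was 2086 bp wide and had 192 per kb, while the region with the highest signal per kb, 404, lay 5.05 kb upstream and 260 bp from the start of a non-coding transcript. The nearest other coding genes, IRX4 and IRX1, belong to the same family and started 792882 bp or more from any distal region of IRX2. The upstream window, with an E-box in capitals at 74 bases before the start, and the centre of the strongest distal region, which held no searched motif, are both rich in GC (72.8% and 70.7%).
IRX2 upstream, chr5:2751678-2751927, minus strand: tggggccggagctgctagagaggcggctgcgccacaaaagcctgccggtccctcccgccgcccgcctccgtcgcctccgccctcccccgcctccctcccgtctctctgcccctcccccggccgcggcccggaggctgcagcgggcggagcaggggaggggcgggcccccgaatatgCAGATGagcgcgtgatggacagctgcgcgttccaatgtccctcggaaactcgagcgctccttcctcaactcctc
IRX2 distal, chr5:2740102-2740401, plus strand: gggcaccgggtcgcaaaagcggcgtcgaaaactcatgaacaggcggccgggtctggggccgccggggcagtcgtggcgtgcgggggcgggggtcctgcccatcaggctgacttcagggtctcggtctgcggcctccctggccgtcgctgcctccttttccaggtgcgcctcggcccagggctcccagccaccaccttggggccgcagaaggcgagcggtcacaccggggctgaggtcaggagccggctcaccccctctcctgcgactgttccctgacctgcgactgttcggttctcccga

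POU3F4, a POU homeodomain factor found in alpha cells, the brain and the inner ear, was the only gene of the 10 with no promoter region. Its nearest region (chrX:83480839-83481479) lay 26811 bp upstream in intergenic sequence, with a mean signal of 197, or 308 per kb, above 73.8% of all other regions per kb. A larger gap between the canonical start and the nearest region was found for 8.20% of all protein-coding genes. The centre of this region is shown because it held the forkhead core and GTTGCCA, a core of RFX sites, both on the minus strand and therefore as reverse complements in capitals.
POU3F4 distal, chrX:83481010-83481309, plus strand: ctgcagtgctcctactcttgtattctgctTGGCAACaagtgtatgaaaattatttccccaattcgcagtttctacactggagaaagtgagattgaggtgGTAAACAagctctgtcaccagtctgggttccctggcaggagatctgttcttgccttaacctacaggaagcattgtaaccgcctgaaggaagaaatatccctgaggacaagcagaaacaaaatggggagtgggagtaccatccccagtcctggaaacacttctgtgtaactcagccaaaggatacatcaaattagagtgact

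Across the genes, the CpG content upstream of the start varied widely. The ratio of observed to expected CpG in the 250 bases before the canonical start was 0.200 at IAPP, 0.220 at GCG, 0.265 at PPY and 0.277 at PYY. It was 0.436 at GHRL, 0.585 at SST and 0.749 at NPY, and the factors had the highest values, with 0.802 at POU3F4, 0.835 at IRX2 and 0.944 at HHEX. Of the 2402 protein-coding genes with a ratio from 0.2 to 0.4, 42.96% had a promoter region and 20.2% a region over the canonical start. All 4 hormone genes in this class had a promoter region in the 2 kb window, and only IAPP had a region over the canonical start. The nearest regions of GCG and PPY lay 1356 and 1438 bp from their canonical starts. Of the 6101 genes with a ratio from 0.8 to 1, 95.6% had a promoter region and 90.1% a region over the canonical start. HHEX and IRX2 had both, and POU3F4 had neither. In signal per kb of the strongest promoter region, 3 of the 9 genes lay above the median of their class and 6 below it. In the class from 0.2 to 0.4 the median was 377, with IAPP (435) above it and GCG (139.9), PPY (253) and PYY (335) below. The value of PYY is from the region shared with NAGS, 52.3 kb upstream of the canonical start. The PYY region nearest to that start had 612 per kb, above the median of 377. In the class from 0.4 to 0.6 the median was 540.1, with GHRL (814) above and SST (171) below. NPY (154) lay below the median of 706 in the class from 0.6 to 0.8. In the class from 0.8 to 1 it was 768, with IRX2 (771) just above and HHEX (548) below. The value of HHEX is from the region 2.74 kb downstream, and the region over its canonical start had 202 per kb.

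**Figure D3:**
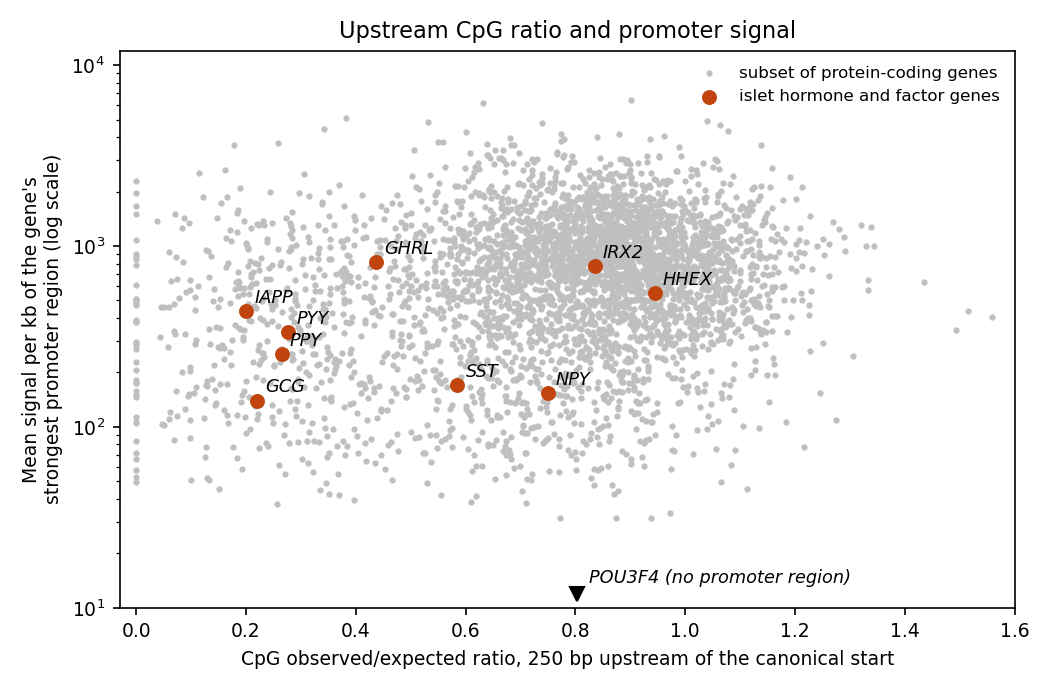
Signal per kb of the strongest promoter region of a gene (log scale) against the ratio of observed to expected CpG in the 250 bp before its canonical start. For PYY this region lies 52.3 kb upstream of that start and is shared with NAGS, and for HHEX it lies 2.74 kb downstream. Grey points are an evenly spaced subset of the protein-coding genes with a promoter region, red points the 9 genes with a promoter region, and the black triangle marks the ratio of POU3F4 (0.802), which has no promoter region.

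The upstream windows of IAPP and GHRL are shown because IAPP had the lowest CpG ratio and GHRL the highest promoter signal per kb. Neither held any of the searched motifs.
IAPP upstream, chr12:21372652-21372901, plus strand: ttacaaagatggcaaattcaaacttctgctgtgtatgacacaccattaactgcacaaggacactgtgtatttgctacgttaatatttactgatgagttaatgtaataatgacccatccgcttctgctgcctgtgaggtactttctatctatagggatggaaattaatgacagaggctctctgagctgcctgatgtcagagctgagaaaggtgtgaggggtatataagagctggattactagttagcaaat
GHRL upstream, chr3:10292948-10293197, minus strand: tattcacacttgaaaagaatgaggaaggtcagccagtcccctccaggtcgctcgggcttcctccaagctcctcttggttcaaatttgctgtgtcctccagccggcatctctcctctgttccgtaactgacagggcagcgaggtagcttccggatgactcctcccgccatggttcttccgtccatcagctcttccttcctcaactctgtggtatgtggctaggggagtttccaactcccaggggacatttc

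Motifs were searched on both strands in the central 300 bp of each region, and a match is only a match of letters. Among the 38 distal regions, TAATTA (homeodomain) was in 4 (10.5%), TGTTTAC (forkhead) in 5 (13.2%), CAGATG (E-box) in 11 (28.9%) and GATAAG (bound by GATA factors) in 7 (18.4%). The shares among all 88448 other regions were 10.1%, 9.43%, 31.1% and 10.7%. TGCTGAC (a core of MAF sites) was in 4 (10.5%, against 7.16%), TGANTCA (AP-1) in 1 (2.63%, against 11.07%), GTTGCCA (RFX) in 1 (2.63%, against 5.07%), TATAAA in 1 (2.63%, against 17.6%) and TGACGTCA (cyclic AMP element) in 0 (against 0.291%). With counts this small, no share was read as differing from the rest. Of the 4 homeodomain matches, 3 were at SST, at its strong region and at those 2.67 and 46.56 kb downstream, and 1 was 3.72 kb downstream of IAPP, where forkhead and MAF cores were also present.

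At promoters, the central 300 bp of the 14 regions held TATAAA in 2 and each of the forkhead, E-box, MAF, AP-1, GATA and cyclic AMP letters in 1, and the homeodomain and RFX letters in 0. The shares of the latter 2 among all promoter regions were 2.39% and 3.56%. TATAAA was in 4.78% of all promoter regions, and the letters found once (7.14% of the 14) were in 1.41% (cyclic AMP element, here at SST) to 14.2% (E-box). In the 250 bases before the canonical starts, the cyclic AMP element of SST was the only 1 in the 10 genes, against 2.41% of the windows of all 20007 genes with a canonical start. TATAAA was in the windows of SST, GCG and PPY (3 of 10, against 9.34%), the RFX core in those of PPY and PYY (2 of 10, against 3.52%), CAGATG in those of GCG and IRX2 (2 of 10, against 9.16%) and TGANTCA in that of POU3F4 (1 of 10, against 4.73%).

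Other genes of the same cell types and the receptors of the hormones were compared by their strongest promoter region, as signal per kb. Of the 10 other alpha cell genes, 9 had a promoter region, with a median of 515 per kb. TM4SF4 had the lowest value, 97.7, below 139.9 at GCG. PAX6, which is required in several islet cell types, had 1581. Of the 10 other genes of delta, gamma and epsilon cells, 9 had a promoter region, with a median of 626, from 239.9 at RBP4, a carrier of retinol, to 1896 at LEPR, the leptin receptor. Both medians were above the 335 of the hormone and factor genes and below the 1114 of the beta cell markers, and no test was made between lists. The 335 is the value of the region that PYY shares with NAGS, and the other promoter region of PYY had 612. With 612 for PYY, the median would be 435, the value of IAPP, still below both other medians.

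Among the receptors, all 5 somatostatin receptor genes had a promoter region, with 1209 per kb at SSTR1, 905 at SSTR2, 1068 at SSTR3, 96.8 at SSTR4 and 1269 at SSTR5. Of the glucagon receptor family, GCGR had 82.0, GLP1R 156.1 and GIPR, the receptor of the incretin GIP, 636. Of the NPY family receptors, 2 of 4 had a promoter region, with 263 at NPY4R, which binds pancreatic polypeptide, and 50.8 at NPY2R, and NPY1R and NPY5R had none. The amylin receptor genes had 144.9 at CALCR, 486 at RAMP1 and 138.2 at RAMP2, and RAMP3 had no promoter region. GHSR, the ghrelin receptor, had 106.6. Thus 4 of the 5 somatostatin receptor promoters exceeded that of SST itself (171 per kb), and GHSR lay below GHRL (814 per kb).

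**Figure D4:**
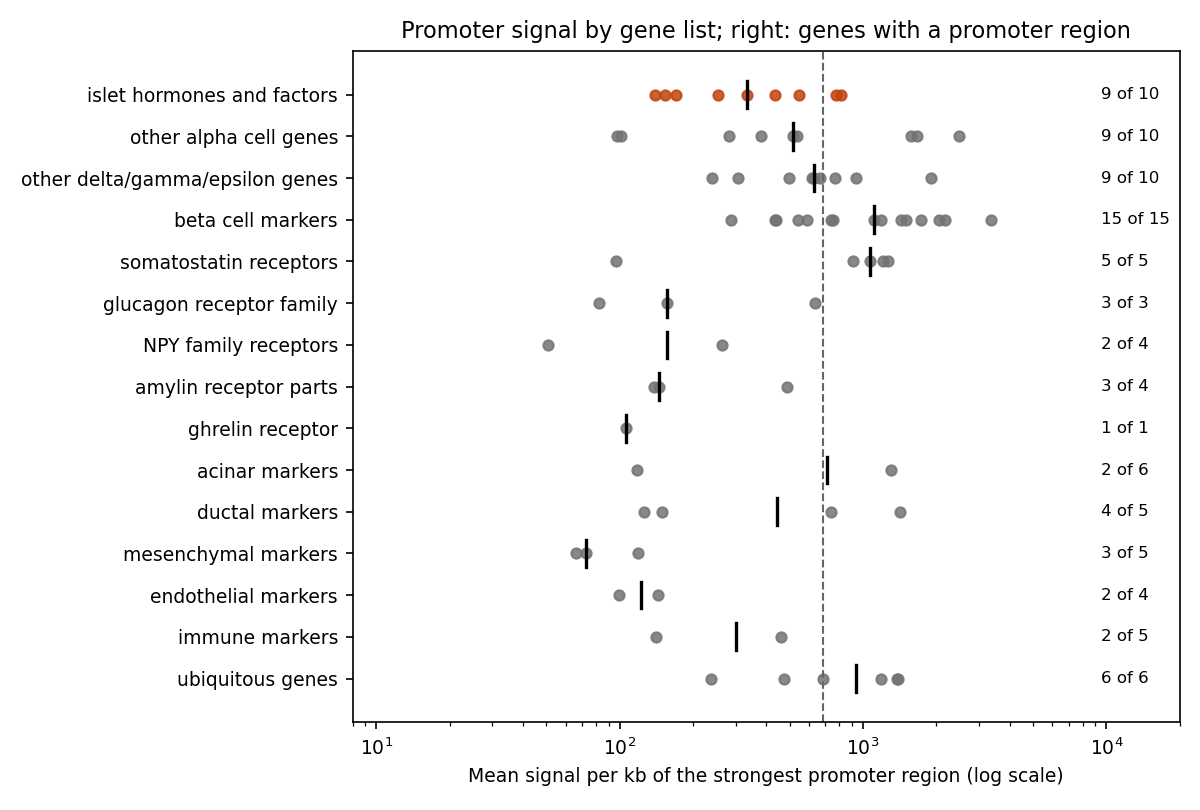
Signal per kb of the strongest promoter region of each gene (log scale) by gene list, with a black bar at the median of the list, the dashed line at the median of all protein-coding genes (686), and the number of genes with a promoter region at the right. The 9 hormone and factor genes (red) lie between 139.9 and 814, and the 15 beta cell markers at 286 or more.

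The assignment to these genes is a rule of distance. With the starts of all transcripts counted, including those of non-coding genes, 20 of the 52 regions had their nearest start in another gene. Among them were regions of IRX2, NPY, HHEX, PPY, PYY and GCG. All 9 regions of SST and all 4 of IAPP, with both promoter regions of HHEX, still had their own gene as the nearest, while the strongest region of HHEX was nearer to a small Y RNA gene, at 9812 bp.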

How the data were processed

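Libraries were grouped by the titles in the labels, 3 senescent and 3 non-senescent. According to the study's methods, Trim Galore was used for trimming and Bowtie2 for alignment to hg38. The authors then discarded mitochondrial and duplicate reads, applied the Tn5 offset, called peaks with MACS2 and counted reads over the merged peak set. Tool versions are not given in the sources used here. The deposited mean signal is the authors' DESeq2 base mean, which that tool defines as the average over all libraries of counts divided by size factors. The 5 other value columns hold the authors' own comparison of the groups (fold change, its error, a statistic and p-values) and were not used. The table has 0 columns for single libraries, so the depth of each library and the replicate error are unknown from it, and the count test planned for such columns was not run.

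Starts and exons were taken from GENCODE 44 and sequence from hg38, and 0 regions lay past a chromosome end. Coordinates of regions are as in the table, which does not state whether starts count from 0 or 1, and those of printed sequences count from 1. RefSeq entries (GRCh38.p14) existed for all 10 genes, with a start at the canonical position. Named were all 10 genes, every promoter region, the strongest distal regions and, of each list, chiefly the genes with the highest and lowest values, some of which are not reported here. Further receptors and alpha cell genes and the distal SST and POU3F4 sequences were chosen after values were seen. The members and lists were chosen with earlier results of these data known. Assignment was tested on simulated regions. Python 3.11.15 and pandas 2.3.3 were used.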

Additional observations from a re-analysis of the deposited data

How the results depend on the processing

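No paired analysis was possible because single libraries have no column, and for the same reason the count tests, normalisations, count filters and the removal of single libraries were not run. The 14 promoter regions became 9 in a window of 0.5 kb, and the 38 distal regions became 20 with starts of all genes. Other counts of regions and genes stayed within a ratio of 1.5. Among these, the genes with a promoter region, 9 in the window of 2 kb, were 7 in windows of 1 and 0.5 kb. As the mean has no error, any change of a percentile is given. The median promoter region, above 33.8% of all promoter regions in mean signal, was above 39.8% and 40.3% in windows of 1 and 0.5 kb, 25.7% with canonical starts only, 46.8% with starts of all genes, 28.8% with regions under a mean signal of 50 left out and 32.9% per kb. The median distal region, above 55.3% of all other regions, was above 54.9% and 55.2% in those windows, 67.96% within 50 kb, 56.6% within 200 kb, 53.9% with canonical starts only, 56.9% with starts of all genes, 48.8% with those regions left out and 59.4% per kb. Of 18 motif counts, 8 stayed within a ratio of 1.5 when whole regions were searched and 10 rose by more. The shares over all regions rose as well, for the E-box from 31.1% to 43.9% of the other regions. Over whole promoter regions, the E-box was in 7 of 14 (50.0%, against 39.1% of all promoter regions). The RFX core was in 3 of 14 (21.4%, against 10.2%). Of the 52 regions, 9 (17.3%) had a mean signal under 50, and the lower quartile of all regions was 39.4.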

Other observations

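Markers of other tissues were measured by the same value, the signal per kb of the strongest promoter region of a gene. Of the acinar markers 2 of 6 had a promoter region, CPA1, a digestive carboxypeptidase, with 1298 and CELA3A with 117.8. Of the ductal markers 4 of 5 had one, from 126.3 at KRT7 to 1418 at MUC1, a mucin of epithelial surfaces. Of the mesenchymal markers 3 of 5 had one, from 66.3 at LUM to 118.7 at COL1A1, and of the endothelial markers 2 of 4, with 99.7 at KDR and 144.3 at PECAM1. Of the immune markers 2 of 5 had one, among them CD14 with 460. All 6 ubiquitous genes had a promoter region, from 237 at HPRT1 to 1389 at GAPDH. The values of GCG (139.9), NPY (154) and SST (171) lay above all promoter values of the mesenchymal list.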
